A study of Homo sapiens with 6 samples.

Results

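Aminoacyl-tRNA synthetases are the enzymes that join each amino acid to its transfer RNA. The genes described here are 38 listed members of this system, of which 22 serve the cytosol (19 synthetase genes and the scaffold proteins AIMP1, AIMP2 and EEF1E1) and 16 encode mitochondrial synthetases, whose symbols end in ARS2. Members were chosen by symbol, and each gene was read from the probe set that carries its symbol alone and has the highest mean over all arrays. By this rule 36 of the 38 were measured, among 18244 genes in all, and AIMP2 and EEF1E1 were not analysed here. The values come from A549, an established cell line from a human adenocarcinoma of the lung, grown in RPMI-1640 medium with serum. The KD group (3 samples) received a lentiviral short hairpin RNA against MRPL35, which encodes a protein of the mitochondrial large ribosomal subunit, and the NC group (3 samples) received a lentiviral control hairpin, so all samples carry a lentivirus. The labels name neither the hairpin sequences nor a clone, and do not say whether samples of a group were separate cultures, so p-values reflect nothing beyond the scatter of these particular samples, possibly a technical one. The study's question was what MRPL35 loss does to the growth and death of lung cancer cells, and the comparison below asks how the charging enzymes of both compartments differed between KD and NC.

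Cytosolic translation and mitochondrial translation use separate sets of tRNAs, and most amino acids have a nuclear-encoded synthetase gene for each compartment. GARS1 and KARS1 each give rise to both the cytosolic and the mitochondrial enzyme. Several cytosolic synthetases sit in a multi-synthetase complex held together by AIMP scaffold proteins. Many cytosolic synthetase genes are under the control of ATF4, a transcription factor that responds to amino acid shortage and stress and binds composite C/EBP-ATF elements in DNA.

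MRPL35 stood at 6.49, 6.44 and 6.56 in the KD arrays, against 8.16, 8.05 and 8.36 in the NC arrays (log2 probe-set values), and its signal in KD was 30.9% of that in NC (limma adjusted p = 3.77e-06). Arrays correlated across genes at 0.997 to 0.998 within KD, 0.994 to 0.998 within NC and 0.976 to 0.980 between the groups. Of 9 measured markers of A549 and lung epithelium 8 lay above the median gene level of 6.21, with mean levels of 12.35 to 12.36 in KD and 11.93 to 12.00 in NC. None of 6 fibroblast or 5 endothelial markers and 1 of 5 leukocyte markers lay above it, with mean levels of 4.0 (lowest 3.96), 4.63 to 4.70 and 4.56 to 4.60 in KD, against 3.99 to 4.19, 4.59 to 4.87 and 4.39 to 4.60 in NC. Of 3 measured markers of the kidney line used for virus packaging 2 did, with mean levels of 6.92 to 6.97 in KD and 6.13 to 6.27 in NC, and their part in the results was not tested. The 3' minus 5' difference of the ACTB control probe sets averaged 0.63 ± 0.044 in KD arrays and 0.58 ± 0.082 in NC arrays (SD over 3 arrays, log2 scale), and that of GAPDH was 0.086 ± 0.035 in KD and 0.012 ± 0.050 in NC. How arrays were normalized is unknown here and their medians lay between 5.49 and 5.55, so each change is read beside the median change of all genes, -0.018, and a lower signal cannot tell less RNA per cell from fewer cells that express the gene.

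Of the 36 measured members 19 fell, 2 rose and 15 did not pass (limma, Benjamini-Hochberg adjusted p under 0.05 over all genes). In the cytosolic group 12 of 20 fell (60%) and 1 rose, the median being -0.34 on the log2 scale. In the mitochondrial group 7 of 16 fell (43.8%) and 1 rose, with a median of -0.21. The groups also differed in level. NC means ran from 8.45 (FARSA) to 11.28 (KARS1) for cytosolic and from 5.97 (PARS2) to 10.23 (IARS2) for mitochondrial members. What level contributes to the counts and medians was not tested. Over all genes tested 33.5% were called, 15.9% lower and 17.6% higher. The share of members that fell thus exceeded that of all genes in both compartments, while the rises did not. Those shares include dim genes (below the 40th percentile of level), and no member was among these. With dim genes left out, 2872 of 10946 genes were lower and 3197 higher. In that fit 12 cytosolic members fell and 1 rose, and 7 mitochondrial members fell and 3 rose. KD and NC arrays did not overlap for 17 of the 20 cytosolic and 11 of the 16 mitochondrial members, against 44.7% of all genes. The members differed widely within each group, with changes between -1.08 and 0.25 for cytosolic and between -1.17 and 0.98 for mitochondrial ones.

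**Figure D1:**
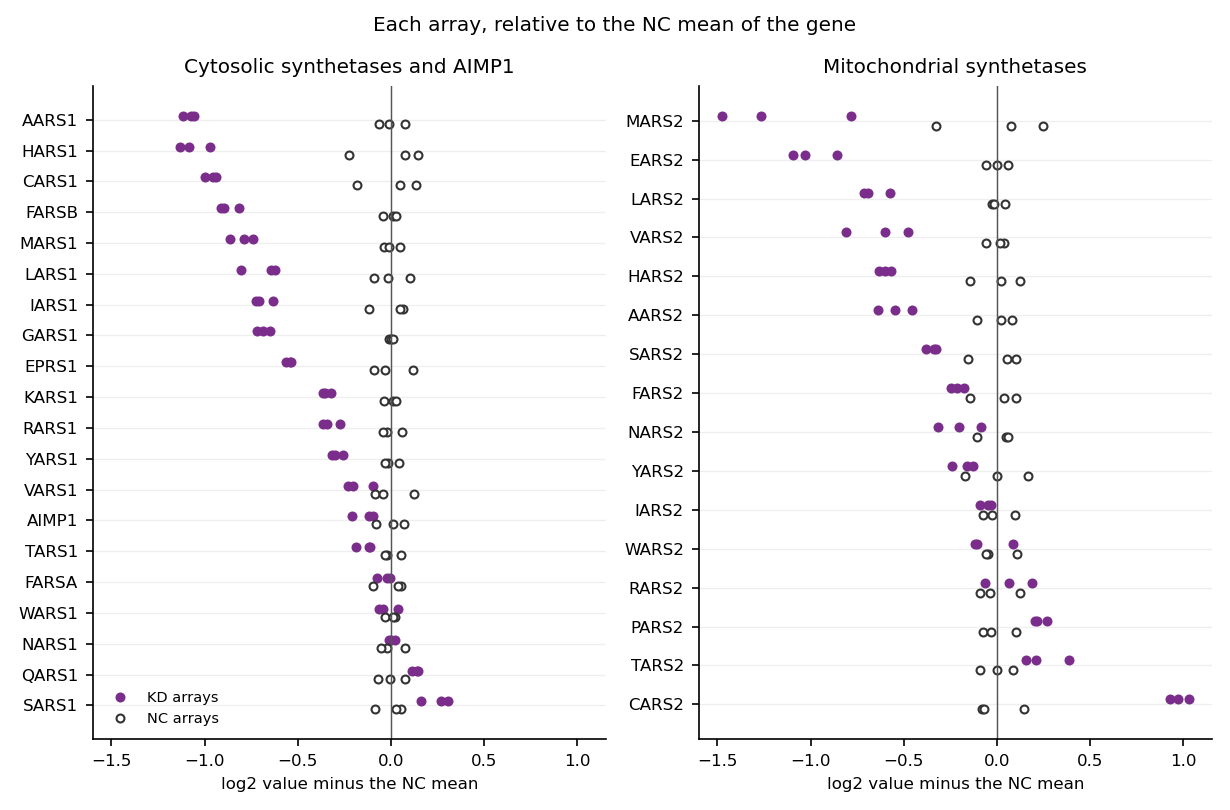
Each point is 1 array, plotted as its log2 probe-set value minus the gene's NC mean, with KD arrays filled and NC arrays open, cytosolic members on the left and mitochondrial members on the right, ordered by change. The KD points lie left of the NC points from AARS1 to TARS1 and from MARS2 to FARS2, and right of them for QARS1, SARS1, PARS2, TARS2 and CARS2.

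The largest cytosolic falls were in the enzymes for alanine, histidine and cysteine. AARS1, which charges alanine, read 8.67, 8.72 and 8.73 in KD replicates 1 to 3, against 9.77, 9.72 and 9.86 in NC replicates 1 to 3. HARS1, the histidine enzyme, read 8.15, 7.99 and 8.04 in KD and 9.20, 8.90 and 9.27 in NC. CARS1, the cysteine enzyme, read 7.79, 7.81 and 7.75 in KD and 8.79, 8.56 and 8.88 in NC. For each of these genes all KD arrays were below all NC arrays, with NC replicate 2 the lowest NC array. All 3 fell, with log2 changes of -1.08 ± 0.077 for AARS1, -1.06 ± 0.11 for HARS1 and -0.96 ± 0.096 for CARS1 (± standard error), that is 2.12-fold, 2.09-fold and 1.95-fold lower (limma adjusted p = 1.27e-05, 9.17e-05 and 7.84e-05).

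Phenylalanine is charged in the cytosol by an enzyme built of alpha subunits from FARSA and beta subunits from FARSB, and these 2 genes differed. FARSB read 8.60, 8.68 and 8.58 in KD, against 9.50, 9.45 and 9.52 in NC. FARSA read 8.37, 8.42 and 8.44 in KD, against 8.50, 8.35 and 8.48 in NC. The FARSB arrays were fully separated and those of FARSA overlapped. FARSB fell by 0.87 ± 0.075 (1.83-fold lower, limma adjusted p = 3.43e-05), with 4 of its 5 probe sets lower and the dim one at -0.29, while the FARSA value was -0.034 with a 95% interval of -0.21 to 0.15.

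Members of the multi-synthetase complex were lower in 6 of the 8 measured, with a median of -0.45, and outside the complex 6 of 12 cytosolic members fell and 1 rose, with a median of -0.23. Over all genes 15.9% were lower and 17.6% higher, and the difference between these 2 small groups was not tested. MARS1, the methionine enzyme, read 8.95, 9.03 and 9.08 in KD and 9.78, 9.80 and 9.86 in NC, and was 1.74-fold lower. LARS1, the leucine enzyme that is also known as a leucine sensor for mTORC1, read 9.16, 8.98 and 9.14 in KD and 9.89, 9.69 and 9.77 in NC. IARS1, the isoleucine enzyme, read 10.55, 10.63 and 10.54 in KD and 11.32, 11.14 and 11.31 in NC. The groups were separated for all of these, and LARS1 and IARS1 each fell by 0.69 (standard errors 0.089 and 0.083, limma adjusted p = 0.000348 and 0.000239). EPRS1, a single protein that charges both glutamate and proline, fell by 0.55 ± 0.083, KARS1, the lysine enzyme of both compartments, by 0.35 ± 0.072, and RARS1, the arginine enzyme, by 0.33 ± 0.076 (adjusted p = 0.000863, 0.00518 and 0.00887). QARS1, the glutamine enzyme, read 9.70, 9.70 and 9.67 in KD and 9.55, 9.49 and 9.63 in NC, all KD arrays being the higher ones, but its change of 0.13 ± 0.076 did not pass (adjusted p = 0.236). The scaffold gene AIMP1 stood at -0.14 ± 0.080 without passing (adjusted p = 0.234) on its brightest probe set. Its next brightest probe set read -0.18 without passing, and its 3 dimmer ones were lower by 0.59 to 0.72 and passed, so that the mean of its 5 probe sets fell by 0.45 (adjusted p = 0.00497).

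GARS1, the glycine enzyme of both compartments, fell by 0.68 ± 0.072, with 10.25, 10.28 and 10.32 in KD and 10.96, 10.97 and 10.98 in NC. YARS1, the tyrosine enzyme, fell by 0.29 ± 0.073 (adjusted p = 0.0141). That small change did not pass without KD replicate 1 (adjusted p = 0.0563) or KD replicate 3 (0.0602), and it rests on a single probe set whose suffix marks possible hybridisation to more than 1 transcript. VARS1, the valine enzyme, at -0.18 ± 0.088, and TARS1, the threonine enzyme, at -0.14 ± 0.075, lay below NC in every KD array but did not pass (adjusted p = 0.173 and 0.208). TARS1 was called lower with a mean-variance trend and robust fitting (0.0455).

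A few abundant cytosolic synthetases showed no detectable difference, and 1 was called higher. NARS1, the asparagine enzyme, read 11.19, 11.20 and 11.22 in KD, against 11.27, 11.17 and 11.14 in NC. WARS1, the tryptophan enzyme and a known interferon-induced gene, read 9.34, 9.24 and 9.26 in KD, against 9.32, 9.27 and 9.31 in NC. Both sets of arrays overlapped, and the 95% intervals of the change were -0.17 to 0.18 for NARS1 and -0.19 to 0.15 for WARS1. Of 9 measured genes of the interferon-gamma response 5 rose, 0 fell and 4 did not pass, where 17.6% of all genes were higher and 15.9% lower. The rises were led by the transcription factor gene IRF9 at 1.84, the peptide transporter gene TAP1 at 1.26 and GBP2, a guanylate-binding protein gene, at 0.89 (log2, limma). Changes in this list ran from -0.035 to 1.84 with a median of 0.55, against -0.022 for WARS1. SARS1, the serine enzyme, read 9.79, 9.90 and 9.94 in KD and 9.55, 9.69 and 9.66 in NC, and its rise of 0.25 ± 0.082 was close to the threshold (limma adjusted p = 0.0471). It failed to pass when KD replicate 1, 2 or 3 was left out, or NC replicate 1 or 3 (adjusted p = 0.0567 to 0.176). Nor did it pass with quantile normalization (0.0671), median centring (0.0701) or x and s probe sets left out (0.0576), and in the fit over all named probe sets its only probe set had an adjusted p of 0.0580.

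**Figure D2:**
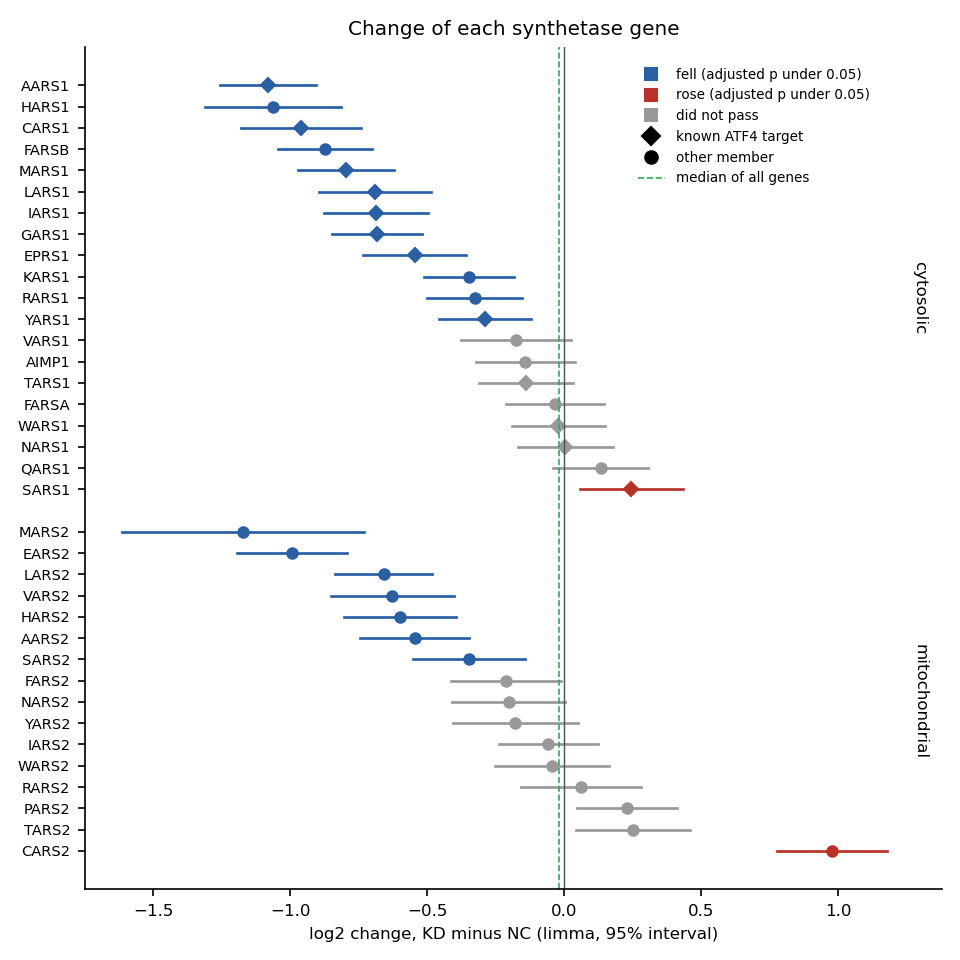
The horizontal axis gives the log2 change, KD minus NC, with its 95% interval from limma (n = 3 per group), and colour gives the call. Diamonds mark the synthetases known as ATF4 targets, which lie between -1.08 (AARS1) and 0.25 (SARS1), and the dashed line marks the median of all genes at -0.018.

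Of the 12 synthetases known from human or mouse cells as ATF4 targets, 8 fell and 1 rose, with a median of -0.61. The shares over all genes, for this list and those below, were 15.9% lower and 17.6% higher. Of the 8 other measured cytosolic members 4 fell, with a median of -0.25. HARS1 and FARSB, which changed by -1.06 and -0.87, are not on that list, and NARS1, TARS1 and WARS1 are on it without passing. ATF4 and its targets outside the synthetases numbered 25, of which 15 fell and 4 rose (median -0.40). The falls were led by SLC7A5, an amino acid transporter gene (-1.74), ASNS, asparagine synthetase (-1.57), and STC2, a secreted glycoprotein gene (-1.52). The 4 genes that rose, also named after their values were seen, were SESN2 (0.78), NUPR1 (0.63), DDIT4 (0.52) and VLDLR (0.49). ATF4 itself, named here after its value was seen, fell by 0.70 ± 0.077 (limma adjusted p = 0.000135). Among 8 genes of the kinases that act upstream of ATF4, with their regulators and substrate, 2 fell and 1 rose with a median of -0.022, a called share near the 33.5% of all genes. EIF2S1, the alpha subunit of eIF2, fell by 1.46 and GCN1, a coactivator of the kinase, by 0.60, while EIF2AK4, the kinase GCN2 that senses uncharged tRNA, rose by 0.59 ± 0.13.

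The promoters of 31 of the 36 measured members were matched by symbol in the RefSeq table of GRCh38.p14, and LARS1, VARS1, YARS1, AARS2 and VARS2 had no match. Windows of 300 bases run from 250 before to 50 after each annotated start. They were searched on both strands for TGATGNAA, the core of the C/EBP-ATF element, and for the E-box CACGTG, which MYC and related factors bind. These motifs do not overlap each other, and the windows below are shown because the genes that carry them include 5 cytosolic genes that fell. The C/EBP-ATF core was present for 7 of 17 cytosolic and 1 of 14 mitochondrial members, against 4.46% of all genes and 3.62% of all windows in the table. Each line gives 40 bases on the gene's own strand, 5′ to 3′, with the match in capitals.
AARS1, chr16:70289670-70289709, minus strand: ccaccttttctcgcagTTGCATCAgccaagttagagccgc
CARS1, chr11:3057402-3057441, minus strand: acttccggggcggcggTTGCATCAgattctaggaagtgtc
MARS1, chr12:57488048-57488087, plus strand: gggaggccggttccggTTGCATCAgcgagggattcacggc
IARS1, chr9:92293687-92293726, minus strand: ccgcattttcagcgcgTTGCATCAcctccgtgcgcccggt
GARS1, chr7:30594829-30594868, plus strand: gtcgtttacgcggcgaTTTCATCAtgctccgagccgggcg
TARS1, chr5:33440951-33440990, plus strand: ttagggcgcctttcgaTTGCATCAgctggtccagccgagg
NARS1, chr18:57621799-57621838, minus strand: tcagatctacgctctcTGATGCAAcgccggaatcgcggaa
YARS2, chr12:32756071-32756110, minus strand: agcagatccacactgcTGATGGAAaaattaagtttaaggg

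In 6 of these 8 windows the core read TGATGCAA or its reverse complement, and in 6 of 8 its first base lay within 33 bases of an annotated start. The windows of AARS1 and YARS2 held it 187 and 197 bases upstream. Of the 7 cytosolic genes with the core 5 fell (AARS1, CARS1, MARS1, IARS1 and GARS1), and TARS1 and NARS1 did not pass. Of the 10 matched cytosolic genes without it 5 fell as well, HARS1 and FARSB among them. Whether the core has a part in the changes was not tested. Of the 10 matched genes on the list of known ATF4 targets 7 held the core, and EPRS1, SARS1 and WARS1 did not in these windows. A match is a description of letters, and binding was not measured.

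**Figure D3:**
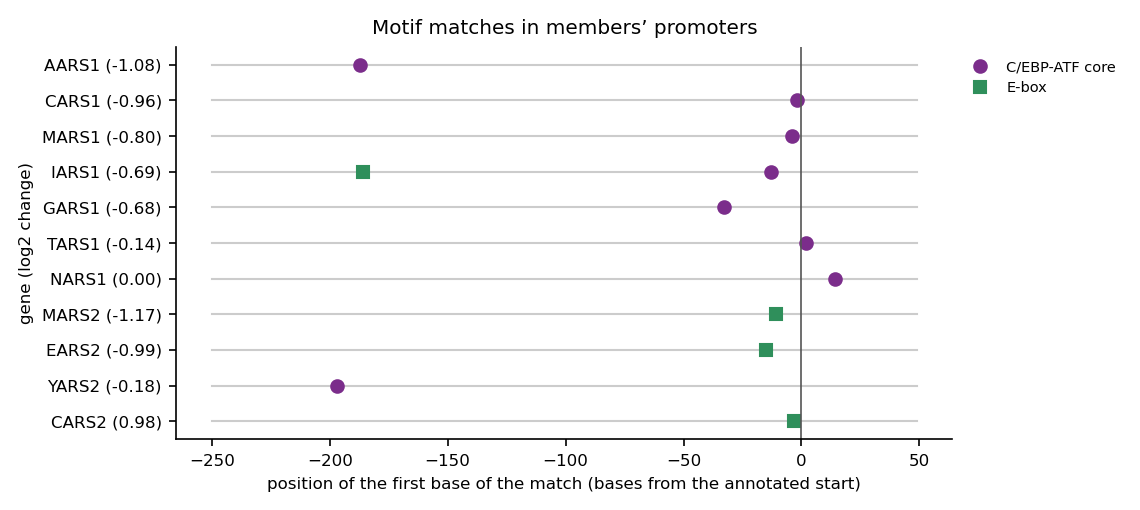
Each row is the promoter window of 1 measured member, drawn by distance from the annotated start at 0, with circles for the C/EBP-ATF core and squares for the E-box, and the gene's log2 change in brackets. The circles of CARS1, MARS1, IARS1, GARS1, TARS1 and NARS1 lie within 33 bases of the start, while the changes of these genes run from -0.96 to 0.0049.

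The mitochondrial falls were led by the methionine and glutamate enzymes. MARS2, which charges the mitochondrial methionine tRNA, read 5.87, 5.39 and 5.18 in KD, against 6.90, 6.33 and 6.73 in NC. EARS2, which charges glutamate, read 6.95, 6.78 and 6.72 in KD, against 7.75, 7.87 and 7.81 in NC. All KD arrays were below all NC arrays for both, but the MARS2 arrays scattered widely within each group. MARS2 fell by 1.17 ± 0.19 (2.26-fold lower, limma adjusted p = 0.00143) and EARS2 by 0.99 ± 0.089 (1.99-fold, 4.22e-05). The 2 dimmer probe sets of MARS2 were lower by 0.67 and 0.70. The other 3 of EARS2 read -0.48, -0.35 and -0.25, of which the last did not pass, and the one used here can hybridise to more than 1 transcript by its suffix.

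Mitochondria make glutamine tRNA by an indirect route, in which EARS2 first loads glutamate and the amidotransferase of QRSL1, GATB and GATC then converts it, and they formylate the methionine tRNA charged by MARS2 through MTFMT. In the list of these 4 partner genes 3 fell and 0 rose. QRSL1 fell by 0.95 ± 0.092, MTFMT by 0.45 ± 0.071 and GATB by 0.45 ± 0.088 (limma adjusted p = 6.61e-05, 0.00108 and 0.00380). GATC stood at 0.26 ± 0.093 without passing (adjusted p = 0.0590, named after its value was seen).

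The leucine, valine, histidine and alanine enzymes of mitochondria fell by smaller amounts. LARS2 read 6.64, 6.62 and 6.76 in KD and 7.30, 7.37 and 7.31 in NC, VARS2 6.41, 6.74 and 6.62 in KD and 7.16, 7.26 and 7.24 in NC. HARS2 read 7.15, 7.12 and 7.18 in KD and 7.77, 7.61 and 7.88 in NC, AARS2 5.82, 5.91 and 5.73 in KD and 6.26, 6.39 and 6.45 in NC. The groups were separated for all 4 genes, which fell by 0.66 ± 0.078, 0.63 ± 0.099, 0.60 ± 0.090 and 0.55 ± 0.087 (limma adjusted p = 0.000208, 0.00107, 0.000804 and 0.00120). The VARS2 call was lost with probe sets that can hybridise to several transcripts left out, when it read -0.18 (adjusted p = 0.169). SARS2, the serine enzyme, fell by 0.35 ± 0.090 (adjusted p = 0.0150), a call lost without KD replicate 3 (0.0632) or NC replicate 3 (0.0513). Its second, dim probe set read -0.015, and the mean of both read -0.18 without passing (0.102).

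CARS2, the mitochondrial cysteine enzyme, went the other way. It read 9.56, 9.61 and 9.66 in KD, against 8.56, 8.57 and 8.78 in NC. The groups were clearly separated, and CARS2 rose by 0.98 ± 0.088, 1.97-fold (limma adjusted p = 4.55e-05). Its second probe set rose by 0.65 (adjusted p = 0.00214 over all probe sets) and its dimmest one read 0.20 without passing.

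The remaining 8 mitochondrial synthetases did not pass. Those for proline (PARS2, 0.23 ± 0.081) and threonine (TARS2, 0.25 ± 0.092) had all KD arrays above all NC arrays, with adjusted p of 0.0577 and 0.0668. FARS2, for phenylalanine, was lower in every KD array at -0.21 ± 0.088 (adjusted p = 0.105). NARS2 (asparagine, -0.20 ± 0.091) and YARS2 (tyrosine, -0.18 ± 0.10) overlapped between groups. IARS2 (isoleucine), WARS2 (tryptophan) and RARS2 (arginine) overlapped too, with 95% intervals of -0.24 to 0.12, -0.25 to 0.16 and -0.16 to 0.28. FARS2 was called lower without NC replicate 2 (adjusted p = 0.0162), with array weights (0.0173) and with quantile normalization (0.0387), and YARS2 without NC replicate 2 (0.0379) and with array weights (0.0336). PARS2 was called higher without NC replicate 3 (0.0344), with array weights (0.0343), with quantile normalization (0.0435) and with dim genes left out (0.0250). TARS2 was called higher under the last 3 of these settings too (0.0434, 0.0428 and 0.0330).

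The E-box was found for 1 of 17 cytosolic and 3 of 14 mitochondrial members matched to a promoter, against 8.77% of all genes and 7.26% of all windows. The 3 mitochondrial windows are shown because they belong to the mitochondrial genes with the 2 largest falls and the largest rise, each with the E-box in capitals within 15 bases of an annotated start.
MARS2, chr2:197705341-197705380, plus strand: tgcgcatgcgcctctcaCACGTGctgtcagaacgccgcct
EARS2, chr16:23557343-23557382, minus strand: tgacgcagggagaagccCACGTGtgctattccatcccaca
CARS2, chr13:110706496-110706535, minus strand: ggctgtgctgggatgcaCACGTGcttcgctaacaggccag

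The same E-box thus stood near the start of genes that changed by -1.17, -0.99 and 0.98. IARS1 held 1 as well, 186 bases upstream, and fell by 0.69. Of the 11 matched mitochondrial members without an E-box 3 fell.

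For 16 amino acid pairs the change of the cytosolic enzyme was set against that of the mitochondrial one, with FARSA for phenylalanine and EPRS1 in both the glutamate and the proline pair. Both enzymes fell for 5 pairs, the cytosolic one alone for 4 and the mitochondrial one alone for 1, and calls were opposite for 2, cysteine and serine. The serine calls both depend on the setting, as given above for SARS1 and SARS2. The difference of the changes, cytosolic minus mitochondrial, had a median of -0.071, with 9 of 16 below 0. KD and NC arrays did not overlap in this difference for 11 pairs, of which 7 had the more negative change in the cytosol and 4 in mitochondria. Such separation was not counted for other pairs of genes, and single genes were separated in 44.7% of all cases. With 3 arrays a group the exact two-sided permutation test cannot go below 0.10, and these 11 pairs all had that smallest p (0.145 adjusted over the 16 pairs), so the test could call no pair and says nothing about whether they differ.

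The widest gap was at cysteine, where CARS1 changed by -0.96 and CARS2 by 0.98, a difference of -1.94. The proline pair (EPRS1 -0.55, PARS2 0.23) and the isoleucine pair (IARS1 -0.69, IARS2 -0.058) differed by -0.78 and -0.63, and the alanine and histidine pairs, where both genes fell, by -0.54 and -0.46. At threonine and arginine the difference was -0.39 each. The gap ran the other way at serine (SARS1 0.25, SARS2 -0.35, difference 0.59), valine (0.45), glutamate (0.45) and phenylalanine (0.18). The valine and glutamate gaps depended on the probe set. With probe sets that can hybridise to several transcripts left out, VARS1 and VARS2 both read -0.18. EPRS1 then read -0.55 and EARS2 -0.35, so that the cytosolic change was the more negative. For phenylalanine the pair used FARSA, while FARSB changed by -0.87 and FARS2 by -0.21. For leucine the changes were close, at -0.69 for LARS1 and -0.66 for LARS2, and the arrays overlapped (exact permutation p = 0.70). The arrays also overlapped for tyrosine (-0.11), tryptophan (0.023), asparagine (0.21) and methionine (0.38).

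**Figure D4:**
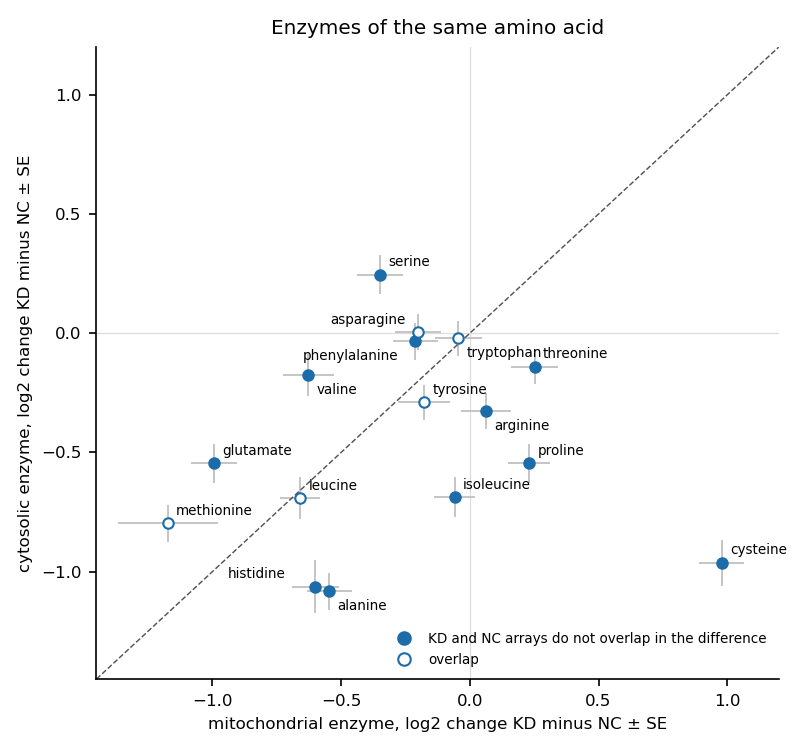
Each point is 1 amino acid, with the log2 change of the mitochondrial enzyme on the horizontal and of the cytosolic enzyme on the vertical axis (KD minus NC ± standard error), and the dashed line marks equal change. Cysteine lies far below the line at 0.98 and -0.96, leucine lies on it, and serine lies above it.

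HARS1 and HARS2 lie head to head on chromosome 5, with annotated starts 85 bases apart, and both fell. The stretch between their starts, which both genes share as the first bases upstream, is shown on the HARS2 strand at chr5:140691370-140691455 of GRCh38.p14, with the 2 annotated start bases in capitals.
HARS1 to HARS2: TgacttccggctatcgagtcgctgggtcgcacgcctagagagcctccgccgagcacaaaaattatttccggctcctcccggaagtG

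HARS1 changed by -1.06 and HARS2 by -0.60 across this stretch. Among 8 such head-to-head arrangements of a member and a measured gene with starts within 500 bases, both genes fell in 3, calls were opposite in 1, 1 gene alone was called in 1 and neither in 3. Such arrangements were not counted for other genes, so these counts have no share to be read against. Of single genes 15.9% were lower and 17.6% higher, and HARS1 and HARS2 are both members. SARS2 (-0.35) lies opposite MRPS12, a gene of the mitochondrial small ribosomal subunit, which fell by 0.47 ± 0.078, and EARS2 (-0.99) opposite UBFD1, which fell by 0.40 ± 0.080 (limma adjusted p = 0.00145 and 0.00395). KARS1 fell by 0.35, whereas TERF2IP, a telomere-binding protein gene whose start lies 108 bases away, rose by 0.74 ± 0.076 (limma adjusted p = 9.41e-05). ORC3, an origin recognition gene opposite RARS2 (0.063), fell by 0.57 ± 0.079. WARS1 and WDR25, AIMP1 and TBCK, and FARS2 and LYRM4 did not pass on either side.

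Over the 93 probe sets of the 36 members, fitted together with all 45278 named probe sets, 51 were lower, 2 higher and 40 did not pass. The share called among all named probe sets is not given here, and by gene 15.9% were lower and 17.6% higher. Probe sets of the same gene are repeated readings of it, so these counts show agreement within genes only. Of 28 members with several probe sets, 21 had the same call in all of them and 0 had calls in both directions. The 4 probe sets of IARS1 changed by -0.73 to -0.62, the 3 of HARS1 by -1.32 to -1.06 and the 5 of MARS1 by -0.86 to -0.66. The widest ranges were those of CARS2 (0.20 to 0.98) and EARS2 (-0.99 to -0.25), followed by FARSB (-0.87 to -0.29), VARS2 (-0.63 to -0.044) and AIMP1 (-0.72 to -0.14). Changes of both signs, none of which passed, were seen among the probe sets of PARS2 (0.23 and -0.040), WARS1 (-0.044 to 0.15), WARS2 (-0.045 to 0.21) and NARS1 (-0.083 to 0.0049). VARS1 had 1 dim probe set of 4 that passed, at -0.30 (adjusted p = 0.0380).

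**Figure D5:**
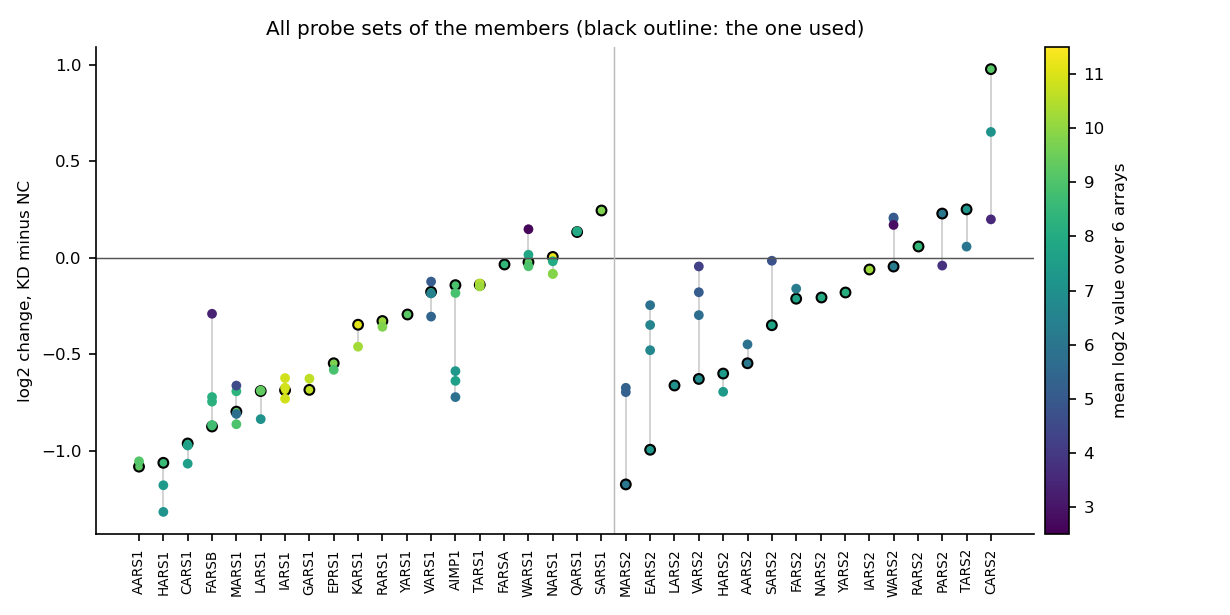
Every probe set of every measured member is plotted by its log2 change, KD minus NC, with the brightest one, used for the gene, outlined in black and colour giving its mean log2 value over the 6 arrays. Cytosolic members stand left of the grey line, and the spread within a gene is widest for CARS2, with 0.20 to 0.98, and EARS2, with -0.99 to -0.25.

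Other steps of tRNA supply and use were counted from lists of named genes. These counts are to be read against the 15.9% of all genes called lower and the 17.6% called higher. With dim genes left out, 2872 of 10946 genes were lower and 3197 higher. Of 31 measured genes of tRNA processing, modification and export 15 fell and 2 rose, with a median of -0.31. POP1, of RNase P and MRP, fell by 1.01, TSEN15, of the tRNA splicing endonuclease, by 0.88 and PUS1, a pseudouridine synthase gene, by 0.76. Of 8 cytosolic elongation and termination factors 4 fell and 0 rose, with ABCE1, a ribosome recycling factor, at -0.68, ETF1, the release factor, at -0.63 and EEF2, the translocation factor, at -0.51. Of 8 measured mitochondrial factors 4 fell and 1 rose, with MTRF1, a release factor gene, at -0.62, the recycling factor gene MRRF at -0.36 and the translocation factor gene GFM1 at -0.33. MTRF1 averaged 4.85 in KD and 5.47 in NC, below the median gene level of 6.21. MTRF1L of the same list, named after its value was seen, stood at 0.090 without passing (limma adjusted p = 0.458). By structural class, 11 of 19 class I and 8 of 16 class II synthetases fell, with 1 rise in each (CARS2 and SARS1) and medians of -0.33 and -0.28. EPRS1, which charges both glutamate and proline, was counted in class I only.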

How the data were processed

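The data are 6 Affymetrix arrays, 3 KD and 3 NC, grouped and numbered by their titles. NC replicates 2 and 3 bear other cell line numbers in their source names but A549 in their characteristics, and were used as A549. The authors' deposited table gives log2 values for 49395 probe sets. The log base was inferred from the range (up to 14.3, array medians 5.49 to 5.55), and summarisation and normalization are not given in the sources used here. Total RNA and biotinylated cRNA were prepared per the labels' protocols.

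Of the probe sets, 45278 had 1 symbol in the platform annotation, 1333 several and 2682 none, and 102 were controls. Genes with several (11825) were read from the brightest. KD was compared with NC over 18244 genes across the whole table with limma 3.58.1 in R 4.3.3 (lmFit, eBayes, group only, two-sided, 4 residual and 4.67 prior degrees of freedom), with Benjamini-Hochberg adjusted p under 0.05. The fit was tested on simulated data. Pairs were tested by exact permutation. Promoters are RefSeq's (GRCh38.p14). Figures used matplotlib 3.10.9.

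Members, lists and motifs were chosen with earlier results of these data known, so no list was tested. All members are named, with MRPL35, up to 3 called genes with the largest changes per other list, and head-to-head neighbours. Exceptions are stated. Alternatives were quantile normalization, median centring, a mean-variance trend with robust fitting, weighted arrays, a block for the replicate number, averaged probe sets, leaving out x and s probe sets, dim genes (below the 40th percentile) or each array, and a 1.5-fold threshold.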

Additional observations from a re-analysis of the deposited data

How the results depend on the processing

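The counts of falling members ranged from 8 to 13 (cytosolic, 12 as reported) and from 5 to 9 (mitochondrial, 7 as reported), with the lowest of each at a 1.5-fold threshold, where all genes counted 1417 higher and 1415 lower against 3207 and 2903. The single cytosolic rise (SARS1) numbered 0 with quantile normalization, median centring, x and s probe sets left out or the 1.5-fold threshold, and 0 to 1 with an array left out. The single mitochondrial rise numbered 3 with quantile normalization, array weights or dim genes left out, PARS2 and TARS2 joining CARS2, and 1 to 2 with an array left out. Cytosolic and mitochondrial medians stayed below 0 throughout. The cytosolic median was -0.43 with the mean of probe sets, and the mitochondrial one ran from -0.27 (without NC replicate 2) to -0.17 with an array left out. Over all members 464 of 502 values under the alternatives kept direction and call, 14 lost and 14 gained a call, and 10 changed sign, all of them in NARS1, WARS1, WARS2 and RARS2, which had not passed. NARS1 read -0.018 with median centring, -0.013 with array weights, -0.045 with the mean of probe sets and -0.022 to 0.043 with an array left out. With the mean of probe sets WARS1 read 0.025 and WARS2 0.13, and with an array left out WARS2 ran from -0.11 to 0.0082 and RARS2 from -0.00076 to 0.13. The median of all genes was 0.020 with array weights and -0.038 to 0.029 with an array left out, against -0.018. The cause of these shifts was not tested. The number of separated pairs was 8 with x and s probe sets left out, over fewer measured pairs, and otherwise 10 to 13. Deviations from the group mean correlated at 0.25, 0.26 and -0.096 between same-numbered KD and NC arrays. Between differently numbered ones they correlated at -0.37 to 0.29. With 3 arrays a group this cannot decide whether the numbers pair the samples. With the replicate block, 12 cytosolic and 7 mitochondrial members fell and 1 of each rose, as without it, among 3262 higher and 3014 lower genes. Scanner files were not used here, so signal over background is unknown and dim probe sets limit what can be read.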
